A study of Mus musculus with 16 samples.

Results

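The miR-17 to miR-92a cluster is a group of miRNA hairpins cut from 1 primary transcript of mouse chromosome 14, and its 6 main mature products, mmu-miR-17-5p, mmu-miR-18a-5p, mmu-miR-19a-3p, mmu-miR-20a-5p, mmu-miR-19b-3p and mmu-miR-92a-3p, were taken by name from the 611 mouse miRNAs on the array. They were measured in total RNA of whole lungs from adult BALB/c mice with 16 Agilent 1-colour arrays. In the groups PBS/PBS (n = 2 arrays), PBS/OVA (n = 4), OVA/OVA (n = 6) and OVA/OVA DEX (n = 4), the first name gives the sensitisation and the second the challenge. Sensitised mice received 50 μg of ovalbumin (OVA, an egg white protein used as the allergen) with 1 mg of Alhydrogel, an aluminium adjuvant, into the peritoneum on day 0, and non-sensitised mice received 1 mg of Alhydrogel alone. Intranasal challenge with 10 μg of OVA, or with PBS in PBS/PBS, ran from day 12 to day 15, and lungs were taken 24 hours after the last challenge. OVA/OVA DEX mice were given dexamethasone, a synthetic glucocorticoid, at 3 mg/kg on day 11 and on alternate days after that, 1 hour before challenge. All groups thus share the adjuvant, and PBS/PBS alone had no OVA at any step. The labels do not say whether the arrays of a group came from separate animals, so the p-values measure the spread between these samples, which may be technical. Whole lung holds many cell types, and in such bulk RNA a change in the number of cells of a type and a change in miRNA per cell cannot be told apart.

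A primary transcript with several hairpins is cropped in the nucleus and each hairpin is then diced to a duplex, of which 1 strand (an arm, named 5p or 3p) is usually kept as the mature miRNA. The mature miRNA guides Argonaute proteins to mRNAs that pair with its seed, bases 2 to 8 counted from the 5′ end, so members with the same seed are expected to share targets. The cluster is known as a target of the MYC transcription factors, as a regulator of lymphocyte survival and proliferation, and as abundant in the developing lung. Members of one transcript can still differ in mature level, because each hairpin is processed and each mature miRNA decays at its own rate.

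All 6 members were found in the RefSeq miRNA table (GRCm38.p6), where they lie on the plus strand of chromosome 14 within 813 bases. They are printed here 5′ to 3′ in the order of the transcript, with the seed in capitals, because the seeds define the families and because the bases outside the seed show how far the array had to tell near copies apart.
miR-17-5p, chr14:115043684-115043706: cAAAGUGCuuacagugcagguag
miR-18a-5p, chr14:115043867-115043889: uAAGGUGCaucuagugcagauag
miR-19a-3p, chr14:115044048-115044070: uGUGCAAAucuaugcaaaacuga
miR-20a-5p, chr14:115044183-115044205: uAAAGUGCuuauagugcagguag
miR-19b-3p, chr14:115044358-115044380: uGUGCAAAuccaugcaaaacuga
miR-92a-3p, chr14:115044476-115044496: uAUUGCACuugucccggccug

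The 6 members carry 4 seeds. The miR-17 family (miR-17-5p and miR-20a-5p) shares AAAGUGC, and these members differ by C1U and C12U from miR-17-5p to miR-20a-5p, with positions counted from the 5′ end. The miR-19 family (miR-19a-3p and miR-19b-3p) shares GUGCAAA and differs by the single change U11C from miR-19a-3p to miR-19b-3p. The seed of miR-18a-5p, AAGGUGC, differs from that of the miR-17 family by 1 base, and from miR-18a-5p to miR-20a-5p the whole sequence differs by G4A, A9U, C11A and A20G. The seed of miR-92a-3p is AUUGCAC. The same mature miR-19b-3p and miR-92a-3p are also encoded on the minus strand of the X chromosome, at chrX:52741991-52742013 and chrX:52741854-52741874, so their signal is the sum of both loci, whereas the table places the other 4 members on chromosome 14 only.

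Each member was measured by 2 probes of 10 spots each. Values are log2 signals scaled so that the 75th percentile of the 206 miRNAs found on all arrays is equal from array to array, and a step of 1 is a change of 2-fold. Levels are compared between groups for the same miRNA and never between members, since probes differ in brightness. Of the 6 members, 5 were detected on all 16 arrays. The exception was miR-17-5p, which was detected on neither OVA/OVA replicate 5 and 6 nor OVA/OVA DEX replicate 3, and 1 of its 2 probes had no spot well above background on any array. Between 224 and 301 mouse miRNAs were detected per array, and the summed signal before scaling of an array was lowest in OVA/OVA (253333 to 734606), against 795089 to 942144 for PBS/PBS, 494814 to 720095 for PBS/OVA and 501545 to 640549 for OVA/OVA DEX. The least bright arrays were OVA/OVA replicates 3, 5 and 6. A miRNA was called when limma's adjusted p was under 0.05 and the change at least 2-fold, over 266 miRNAs that at least 1 group had on each of its arrays, and "passed" below means the adjusted p alone. Precision is set by how few arrays a group has, above all in PBS/PBS.

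**Figure D1:**
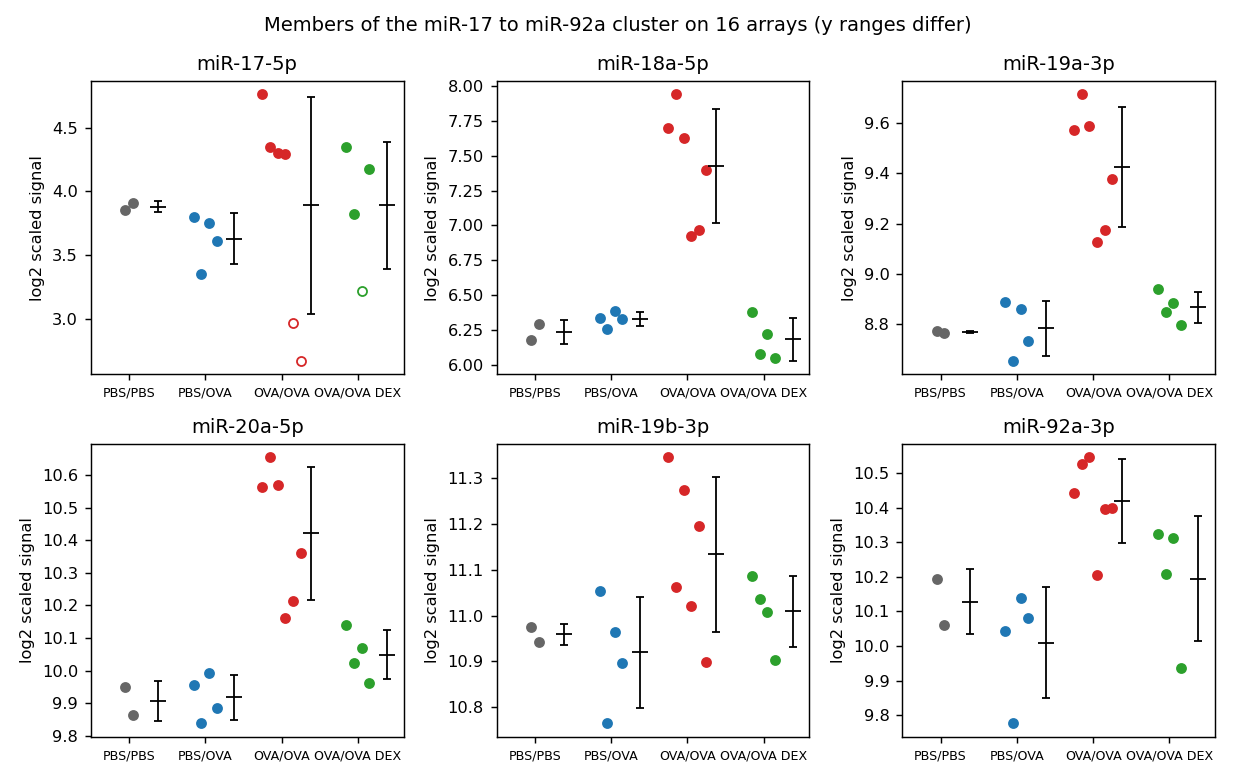
Log2 scaled signal of each member (y axis, range differs by panel) on each array, by group (x axis). Filled points are arrays on which the miRNA was detected, open points those on which it was not, and the black bar is the mean ± SD of the group. The OVA/OVA points of miR-18a-5p, miR-19a-3p and miR-20a-5p lie above those of all other groups, and miR-17-5p is scattered.

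The lungs of OVA/OVA mice held more miR-18a-5p, miR-19a-3p and miR-20a-5p than those of each other group. For these members the OVA/OVA arrays lay above every array of every other group. The size of the rise was unequal, 2.14-fold to 2.37-fold for miR-18a-5p, 1.47-fold to 1.58-fold for miR-19a-3p and 1.29-fold to 1.43-fold for miR-20a-5p, while miR-19b-3p did not pass in any comparison and miR-92a-3p passed in 1. These folds are relative to the other miRNAs of an array, and they depend on the scale. Without scaling miR-18a-5p, miR-19a-3p and miR-20a-5p passed in no comparison, and with control spots miR-18a-5p alone of these did, against PBS/OVA and the dexamethasone group. In these settings the differences of miR-19a-3p, miR-20a-5p, miR-19b-3p and miR-92a-3p turned in 1 or more comparisons, and with control spots miR-19b-3p and miR-92a-3p passed as lower than with dexamethasone. No member was called or passed between OVA/OVA DEX and either control group.

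The miR-18 family is represented by miR-18a-5p, the member for which the array difference was largest. In PBS/PBS its log2 signal was 6.18 and 6.30, and in PBS/OVA it was 6.34, 6.26, 6.39 and 6.33. The 6 OVA/OVA arrays ran from 6.93 to 7.94 with a median of 7.51, and the 4 OVA/OVA DEX arrays held 6.38, 6.08, 6.22 and 6.05. The 10 arrays outside OVA/OVA thus fell in a narrow band, and the lowest OVA/OVA array lay above its top. The spread was also larger in OVA/OVA (SD 0.41) than in PBS/OVA (SD 0.05) or OVA/OVA DEX (SD 0.15). Relative to PBS/OVA, which differs from OVA/OVA by the sensitisation alone, the level was 2.14-fold higher (log2 difference 1.10 ± 0.17 SE, 95% interval 0.73 to 1.47, limma adjusted p = 0.000511). The fold was 2.28 against PBS/PBS (95% interval of the log2 difference 0.72 to 1.66) and 2.37 against the dexamethasone group (0.87 to 1.62), and both were called. The call against PBS/PBS depended on the processing. The log2 difference was 0.09 without scaling (limma adjusted p = 0.874), 0.47 with control spots (adjusted p = 0.0608), 0.66 with the percentile over all miRNAs (adjusted p = 0.0561) and 0.80 with quantile normalization (adjusted p = 0.0576), none of which passed, nor did the exact Mann-Whitney test, which cannot with 2 arrays. Without scaling it was 0.58 against PBS/OVA and 0.95 against the dexamethasone group and did not pass either (limma adjusted p = 0.202 and 0.095). By the size of its change it ranked 35th of 266 against PBS/PBS, 24th against PBS/OVA and 27th against the dexamethasone group. Both of its probes rose, by 1.18 and 1.06 against PBS/OVA on the log2 scale. The rises were 1.30 and 1.13 against PBS/PBS and 1.44 and 1.15 against the dexamethasone group. The call against PBS/OVA stood near the 2-fold limit, and without OVA/OVA replicate 2 the log2 difference was 0.996 (limma adjusted p = 0.000719), just under it.

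The miR-17 family has one member that was detected on all arrays and one that was not. The former, miR-20a-5p, had log2 signals of 9.95 and 9.86 in PBS/PBS and 9.96, 9.84, 9.99 and 9.88 in PBS/OVA. In OVA/OVA it ran from 10.16 to 10.66 with a median of 10.46, and in OVA/OVA DEX it was 10.14, 10.03, 10.07 and 9.96. Every OVA/OVA array exceeded every other array, although the lowest exceeded the highest OVA/OVA DEX array by very little. The log2 difference of OVA/OVA was 0.51 ± 0.12 (SE) against PBS/PBS, 0.50 ± 0.10 from PBS/OVA and 0.37 ± 0.10 from the dexamethasone group, with limma adjusted p = 0.00858, 0.00141 and 0.00661. These folds of 1.43, 1.42 and 1.29 passed but were under the 2-fold limit. The difference to PBS/PBS no longer passed without PBS/PBS replicate 1 or 2 (limma adjusted p = 0.0723 and 0.108). The other member, miR-17-5p, had log2 signals between 3.35 and 3.91 in the controls. In OVA/OVA it lay between 4.29 and 4.76 on the 4 arrays that detected it and at 2.97 and 2.67 on the others, and the 3 detected OVA/OVA DEX arrays lay between 3.82 and 4.35. Its 95% interval against PBS/OVA, -0.55 to 1.07, spans a fall, no change and a doubling of the signal, so no direction could be given. With normexp its difference to PBS/PBS was 0.88 and passed (limma adjusted p = 0.0244). That setting raised the whole comparison, with a median of 0.55 over all miRNAs tested and 30 called higher and 0 lower. OVA/OVA replicates 5 and 6 decide the main difference to PBS/OVA. Without the 3 dimmest OVA/OVA arrays the log2 difference to PBS/OVA was 0.84 (limma adjusted p = 0.0297), an alternative chosen after seeing the data.

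The miR-19 family, which is known to account for much of the oncogenic action of the cluster, also moved unequally. For miR-19a-3p the PBS/PBS arrays had log2 signals of 8.77 and 8.77 and the PBS/OVA arrays 8.89, 8.66, 8.86 and 8.73. The OVA/OVA arrays ran from 9.13 to 9.71 with a median of 9.48, and the OVA/OVA DEX arrays were 8.94, 8.85, 8.88 and 8.80. The OVA/OVA arrays lay above those of each other group, while PBS/OVA overlapped with both PBS/PBS and OVA/OVA DEX. The log2 difference of OVA/OVA was 0.66 ± 0.14 (SE) against PBS/PBS, 0.64 ± 0.11 from PBS/OVA and 0.56 ± 0.11 from the dexamethasone group, with limma adjusted p = 0.00483, 0.00079 and 0.00101. Without PBS/PBS replicate 1 or 2 the first of these no longer passed (limma adjusted p = 0.0624 and 0.065). For miR-19b-3p the log2 signal of the OVA/OVA arrays ran from 10.90 to 11.35. It was 10.98 and 10.94 in PBS/PBS, ran from 10.77 to 11.05 in PBS/OVA and lay between 10.90 and 11.09 with dexamethasone. These groups overlapped. Its log2 difference was 0.17 (95% interval -0.07 to 0.41) against PBS/PBS, 0.21 (0.02 to 0.40) against PBS/OVA and 0.12 (-0.07 to 0.31) against the dexamethasone group, and none passed (limma adjusted p = 0.252, 0.0763 and 0.261). The intervals leave room for a rise of at most 1.33-fold. Without OVA/OVA replicate 6 the difference to PBS/OVA was 0.26 and passed (limma adjusted p = 0.036), and with quantile normalization all 3 differences passed, at 0.30, 0.34 and 0.26 (limma adjusted p = 0.0479, 0.00841 and 0.0191).

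The last hairpin of the transcript gives miR-92a-3p, known for its effects in endothelium. Its log2 signal ran from 10.21 to 10.55 on the OVA/OVA arrays. It was 10.19 and 10.06 in PBS/PBS, ran from 9.78 to 10.14 in PBS/OVA and lay between 9.94 and 10.32 with dexamethasone. The OVA/OVA arrays lay above those of both control groups and overlapped with OVA/OVA DEX. The difference to PBS/OVA, 1.33-fold (log2 0.41 ± 0.10 SE), passed with a limma adjusted p of 0.00667. Those to PBS/PBS (log2 0.29, adjusted p = 0.0908) and to OVA/OVA DEX (log2 0.22, adjusted p = 0.0652) did not, although without OVA/OVA replicate 4 they were 0.33 and 0.27 and passed (limma adjusted p = 0.0466 and 0.0305). The latter also passed without PBS/OVA replicate 2 (limma adjusted p = 0.0415), an array of neither group that bears on the shared estimate of the spread. The 2 probes of miR-92a-3p were unlike against OVA/OVA DEX, with log2 differences of 0.02 and 0.31. Against PBS/OVA they gave 0.38 and 0.42. Both probes were well above background on all 16 arrays.

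**Figure D2:**
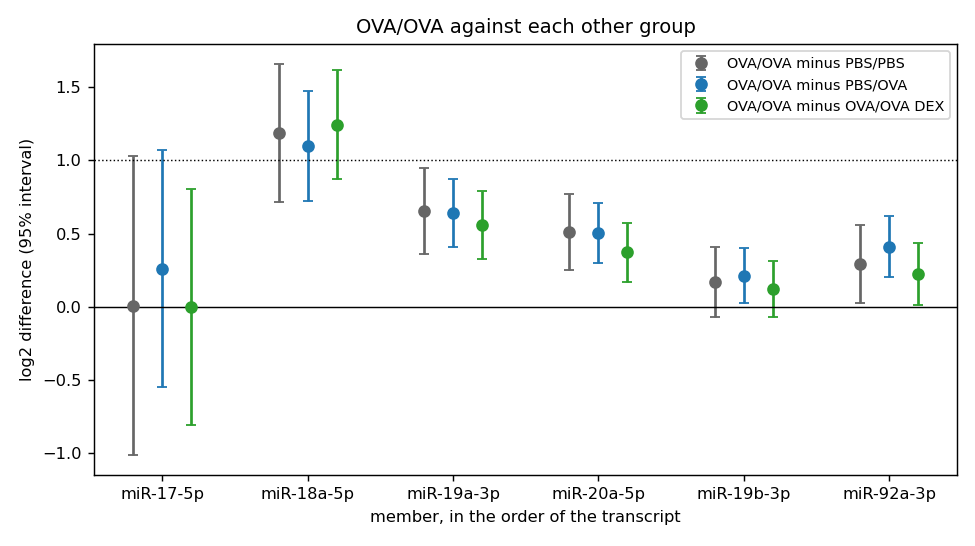
Log2 difference of OVA/OVA from each other group (y axis, points, with 95% intervals from limma) for the members in the order of their transcript (x axis). The solid line is no difference and the dotted line 2-fold. All 3 points of miR-18a-5p are above the dotted line, those of miR-19a-3p and miR-20a-5p lie between the lines, and the intervals of miR-17-5p are wide.

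Counted over the cluster, 1 of 6 members was called higher in OVA/OVA against PBS/PBS, where 6.02% of the 266 miRNAs were, 1 of 6 against PBS/OVA, where 3.38% were, and 1 of 6 against the dexamethasone group, where 9.4% were. By adjusted p alone, 3, 4 and 3 members were higher, beside 13.2%, 14.7% and 21.1% of all miRNAs tested. The arrays of OVA/OVA did not overlap with and lay above those of the other group for 4, 4 and 3 members, beside 25.9%, 10.9% and 14.7% of all miRNAs tested. The median log2 difference of the members was 0.40, 0.46 and 0.30, and that of all miRNAs tested -0.02, -0.04 and -0.09. The members share a transcript and the 3 comparisons share the OVA/OVA arrays, so these counts are not independent of each other.

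Between the groups other than OVA/OVA no member passed. In limma 0 of 6 members were called or passed for PBS/OVA against PBS/PBS, where 0.376% of all miRNAs were called and passed, for OVA/OVA DEX against PBS/PBS, where 0% were, and for OVA/OVA DEX against PBS/OVA, where 0.752% were called and 2.26% passed. None of the members had an unadjusted p under 0.05 in these comparisons in limma or in the exact Mann-Whitney test, although that test cannot reach 0.05 with 2 arrays. The 95% intervals of the log2 difference from OVA/OVA DEX to PBS/OVA ran from -0.55 to 0.26 for miR-18a-5p, -0.17 to 0.34 for miR-19a-3p, -0.09 to 0.36 for miR-20a-5p, -0.12 to 0.30 for miR-19b-3p and -0.04 to 0.41 for miR-92a-3p. For miR-17-5p the interval, -0.62 to 1.15, includes a doubling.

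Whether members of the one transcript moved by the same amount was asked on each array by itself. The log2 signal of one member was subtracted from that of another, which removes the scaling of the array, and the differences were compared between groups with a two-sided exact permutation test, adjusted over the 15 pairs. The absolute value of such a difference reflects the probes, and only its shift between groups has a meaning. A shift shows unequal change and does not say which member moved.

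Relative to miR-19a-3p on the same array, miR-18a-5p stood at -2.55, -2.40, -2.47 and -2.41 in PBS/OVA. In OVA/OVA it stood between -2.21 and -1.77, and with dexamethasone at -2.56, -2.77, -2.66 and -2.75. The OVA/OVA arrays lay above all of these, also above PBS/PBS at -2.60 and -2.47. From PBS/OVA to OVA/OVA miR-18a-5p thus gained 0.46 on miR-19a-3p, and by the same measure it gained 0.60 on miR-20a-5p, 0.69 on miR-92a-3p and 0.89 on miR-19b-3p. Each of these 4 shifts had no overlap between groups (exact permutation p = 0.00952, the smallest that 6 against 4 arrays allow, adjusted p = 0.0238). Against OVA/OVA DEX the gains were 0.69, 0.87, 1.02 and 1.12 in the same order, with the same exact p and adjusted p. With normexp none of these shifts passed, the groups overlapped and the gain on miR-19a-3p was 0.20 from PBS/OVA and 0.24 from OVA/OVA DEX (adjusted exact p = 0.171 and 0.111). With quantile normalization the 4 shifts from PBS/OVA did not pass (adjusted exact p from 0.0952 to 0.114), while those from OVA/OVA DEX did. The neighbours miR-19a-3p and miR-20a-5p, which rose by similar amounts, also parted by a small step, 0.14 from PBS/OVA and 0.19 from OVA/OVA DEX, both with no overlap and an adjusted exact p of 0.0238. Within the miR-19 family, miR-19a-3p gained 0.43 on miR-19b-3p from PBS/OVA and 0.44 from OVA/OVA DEX, again with an adjusted exact p of 0.0238 in both.

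In all, 6 of 15 pairs changed unequally between PBS/OVA and OVA/OVA and 7 of 15 between OVA/OVA DEX and OVA/OVA, and none was a pair with miR-17-5p. The seventh was miR-19a-3p against miR-92a-3p, with a shift of 0.33 (adjusted exact p = 0.0408). Groups did not overlap for 6 of the 15 pairs in each comparison, and these were 6 of the 10 pairs without miR-17-5p. The background is all 21115 pairs of the miRNAs detected on all arrays, which leave out miR-17-5p. Among them groups did not overlap for 24.4% from PBS/OVA and 36.7% from OVA/OVA DEX, so unequal change of 2 miRNAs is common on these arrays. Pairs of miR-20a-5p, miR-19b-3p and miR-92a-3p with each other did not pass in either comparison. The shift of miR-20a-5p against miR-92a-3p was 0.09 and 0.15, and that of miR-19b-3p against miR-92a-3p was -0.20 and -0.10 (adjusted exact p from 0.0857 to 0.417). Against PBS/PBS, 2 arrays cannot give an exact p under 0.0714. There 10 of 15 pairs did not overlap, and 9 of the 10 without miR-17-5p, beside 53.2% of all pairs. In this comparison miR-18a-5p gained 0.53 on miR-19a-3p, 0.68 on miR-20a-5p, 0.90 on miR-92a-3p and 1.02 on miR-19b-3p.

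**Figure D3:**
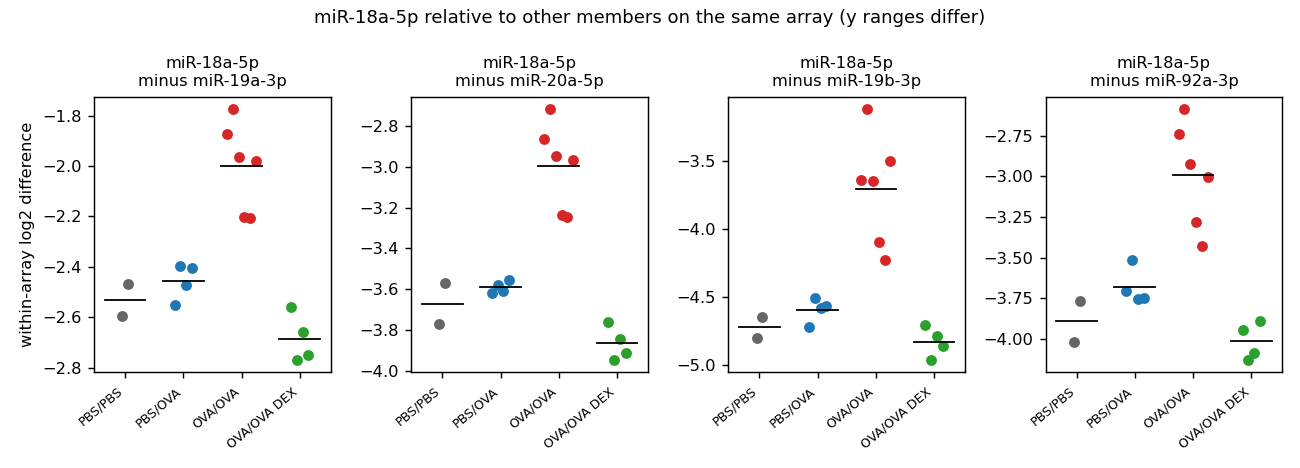
Log2 signal of miR-18a-5p minus that of another member on the same array (y axis, range differs by panel), by group (x axis). Points are arrays and bars are group means. In each panel the 6 OVA/OVA points lie above all others, and the OVA/OVA DEX mean is the lowest.

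For 3 of these pairs the OVA/OVA DEX arrays lay below all PBS/OVA arrays. From PBS/OVA to OVA/OVA DEX miR-18a-5p lost 0.23 against miR-19a-3p, 0.28 against miR-20a-5p and 0.33 against miR-92a-3p, with no overlap between the groups. The groups overlapped for the other pairs, so 3 of 15 did not overlap, beside 17.1% of all pairs, which is near that share, and no test of this comparison was planned.

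Both slides showed the larger rise of miR-18a-5p. All groups were on slide 1, and slide 2 had all but PBS/PBS. The log2 difference of miR-18a-5p was 1.50 on slide 1 and 0.90 on slide 2 from PBS/OVA, and 1.61 and 1.08 from OVA/OVA DEX. Its gain on miR-19a-3p against PBS/OVA was 0.61 on slide 1 and 0.39 on slide 2, and that on miR-19b-3p was 1.16 and 0.77. The slides were unlike for miR-17-5p, whose log2 difference from PBS/OVA was 1.00 on slide 1 and -0.15 on slide 2. On slide 2, OVA/OVA replicates 5 and 6 did not detect miR-17-5p. The OVA/OVA replicates 1 and 2 were on slide 1 and the other 4 on slide 2, so a difference between slides and a difference between these lungs cannot be told apart.

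Across the 16 arrays, 3 members were high and low together. Pearson's r was 0.98 between miR-18a-5p and miR-19a-3p, 0.99 between miR-19a-3p and miR-20a-5p and 0.95 between miR-18a-5p and miR-20a-5p. These values are descriptions over arrays that share slides, scaling and the group differences. After the group means were taken off, r was still 0.95, 0.98 and 0.95, and within the 6 OVA/OVA arrays it was 0.99, 1.00 and 0.99. The same lungs were thus high or low for these members, with replicate 2 the highest and replicates 4 and 5 the lowest. With group means taken off, miR-92a-3p followed miR-20a-5p with r = 0.70 and miR-18a-5p with r = 0.58, and miR-19b-3p followed miR-18a-5p with r = 0.29 and miR-19a-3p with r = 0.44. By the same measure the r of miR-17-5p with the other members was between 0.06 and 0.49.

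Of all miRNAs detected on every array, the 3 whose values over the 16 arrays were most like those of miR-18a-5p were miR-532-5p (r = 0.99), miR-340-5p (r = 0.98) and miR-7a-5p (r = 0.98), none of them from the cluster. For miR-19a-3p they were miR-20a-5p (r = 0.99), miR-20b-5p (r = 0.99) and miR-340-5p (r = 0.98), and for miR-20a-5p they were miR-20b-5p (r = 0.99), miR-19a-3p (r = 0.99) and miR-340-5p (r = 0.96). For miR-92a-3p they were miR-223-3p (r = 0.89), miR-20a-5p (r = 0.88) and miR-20b-5p (r = 0.87). The nearest of miR-19b-3p were miR-142-5p (r = 0.81), miR-425-5p (r = 0.77) and miR-690 (r = 0.76). Those of miR-17-5p were miR-148b-3p (r = 0.71), miR-690 (r = 0.67) and miR-532-3p (r = 0.65).

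The other arms of the hairpins gave a second reading of the transcript. Of 6 listed, 4 were found by name on the array and 2 were detected on all arrays and tested. The other arm miR-18a-3p was detected on 7 of 16 arrays and miR-19a-5p on none. The 3p arm of the miR-17 hairpin, which unlike its 5p arm was detected on all arrays, had log2 signals from 6.83 to 7.43 in OVA/OVA. They were 6.53 and 6.58 in PBS/PBS, ran from 6.34 to 6.70 in PBS/OVA and lay between 6.56 and 6.84 with dexamethasone. The OVA/OVA arrays lay above the controls and their lowest was level with the highest OVA/OVA DEX array. For miR-17-3p the log2 difference of OVA/OVA was 0.66 ± 0.16 (SE) against PBS/PBS, 0.69 ± 0.12 from PBS/OVA and 0.52 ± 0.12 from the dexamethasone group, and all passed (limma adjusted p = 0.00922, 0.000964 and 0.004). That of miR-20a-3p was -0.05, 0.10 and -0.12 and did not pass, with a 95% interval of -0.32 to 0.51 against PBS/OVA.

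Paralogous clusters repeat the same families elsewhere in the genome. Of 6 listed products of the X-linked miR-106a cluster, 4 were found by name on the array, and of these only miR-20b-5p was detected on all arrays. It was 1.45-fold higher in OVA/OVA than in PBS/OVA (log2 0.54 ± 0.09 SE, limma adjusted p = 0.000802), 1.43-fold higher than in PBS/PBS and 1.32-fold higher than in OVA/OVA DEX, close to miR-20a-5p in each. It is shown because it is nearly a copy of that member, from which it differs by U1C and U10C (miR-20a-5p first), and how far the probes separate them was not tested.
miR-20b-5p, chrX:52742159-52742181: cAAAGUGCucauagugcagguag
The other products of that cluster found by name, miR-18b-5p, miR-92a-2-5p and miR-363-3p, were detected on 0, 0 and 2 arrays. Both detections of miR-363-3p were in OVA/OVA. The members of the chromosome 5 cluster, miR-106b-5p and miR-93-5p, which carry the miR-17 seed, and miR-25-3p, which carries the miR-92 seed, were all detected on all arrays, and 0 of 3 passed in limma in any comparison with OVA/OVA, with 0 of 3 at an unadjusted p under 0.05. The log2 differences from PBS/OVA were 0.01 (95% interval -0.17 to 0.20), 0.21 (-0.01 to 0.43) and 0.13 (-0.04 to 0.30). Of the further relatives with the miR-92 seed, miR-32-5p differed from PBS/OVA by 0.00 (-0.21 to 0.22), miR-92b-3p was detected on 1 array and miR-367-3p on none. The difference between miR-106b-5p and miR-20a-5p, which share a seed, was not tested.

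The miRNAs listed as haematopoietic, a list without the erythroid ones, were on average higher in OVA/OVA as well. All 6 of the listed haematopoietic miRNAs, miR-142-3p, miR-142-5p, miR-150-5p, miR-223-3p, miR-342-3p and miR-155-5p, were detected on all arrays. In OVA/OVA 4 of them passed as higher than in PBS/PBS, 6 higher than in PBS/OVA and 5 higher than with dexamethasone. Their summed scaled signal ran from 33102 to 48821 in OVA/OVA, above all other arrays. It ran from 20967 to 23531 in PBS/PBS, from 16381 to 24321 in PBS/OVA and from 18482 to 27225 with dexamethasone. The r of its log2 value with miR-18a-5p over the 16 arrays was 0.94, with miR-19a-3p 0.95, with miR-20a-5p 0.93, with miR-92a-3p 0.88, with miR-19b-3p 0.64 and with miR-17-5p 0.14. After the group means were taken off, r was 0.70, 0.74, 0.74, 0.82, 0.33 and 0.12. The sum follows mostly its brightest miRNA, miR-142-3p, and is not an even reading of the list. In OVA/OVA the mean log2 signal of miR-142-3p was 14.97, and that of the other listed markers ran from 8.69 to 12.63. The part of these markers in the rise of the members was not tested.

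Markers of other cell types mostly did not rise with the members. Of 3 listed erythroid miRNAs, miR-451 and miR-144-3p were found by name on the array and miR-486-5p was not. The 2 found summed to 36986 to 70438 in OVA/OVA and to 100092 to 136112 with dexamethasone. The sums were 72736 to 79413 in PBS/PBS and 47860 to 87243 in PBS/OVA. Both miRNAs were called lower in OVA/OVA than in OVA/OVA DEX. Both strands of the endothelial miR-126 passed as lower in OVA/OVA against PBS/OVA and OVA/OVA DEX, with sums of 30554 to 40853 in OVA/OVA against 38172 to 46638 and 40697 to 48460. The striated muscle miRNAs miR-133a-3p and miR-133b-3p passed as lower against each group, and miR-206-3p was not detected. The sum of the 4 found by name was 197 to 491 in OVA/OVA and 452 to 754 elsewhere. Of the 5 epithelial miRNAs tested (miR-205-5p was detected on 1 array), only miR-200c-3p passed as higher against each group, by at most 1.28-fold. One of 3 ciliated-cell miRNAs was called higher in OVA/OVA than with dexamethasone and the others passed as lower, and both smooth muscle miRNAs passed as lower than with dexamethasone. The summed ranges of OVA/OVA overlapped with those of PBS/OVA and the dexamethasone group for the epithelial, the ciliated and the smooth muscle list. Their part in the result was not tested either.

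The direction of the smaller changes depended on how arrays were scaled. The OVA/OVA arrays were on average dimmer than the others, and without scaling the median log2 difference of all miRNAs tested was -1.12, -0.56 and -0.38 against PBS/PBS, PBS/OVA and the dexamethasone group. In the same order and without scaling, miR-18a-5p differed by 0.09, 0.58 and 0.95, miR-19a-3p by -0.44, 0.13 and 0.27 and miR-20a-5p by -0.58, -0.01 and 0.08, each above those medians. Scaling by control spots gave 0.47, 0.50 and 0.62 for miR-18a-5p, -0.06, 0.05 and -0.07 for miR-19a-3p and -0.20, -0.09 and -0.25 for miR-20a-5p, with medians of all miRNAs of -0.74, -0.64 and -0.71. The normexp background correction moved the medians the other way, to 0.55, 0.31 and 0.16, with 1.08, 0.78 and 0.72 for miR-18a-5p. A scale that is 1 factor per array moves all members alike and so cannot change their order. Quantile normalization and normexp can, and under both miR-18a-5p kept the highest difference of the 5 members detected on all arrays and miR-19a-3p the next. Under quantile normalization the order of the others changed, with miR-92a-3p (0.39) above miR-20a-5p (0.38) against PBS/OVA, and miR-19b-3p (0.26) above miR-20a-5p (0.22) against the dexamethasone group.

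**Figure D4:**
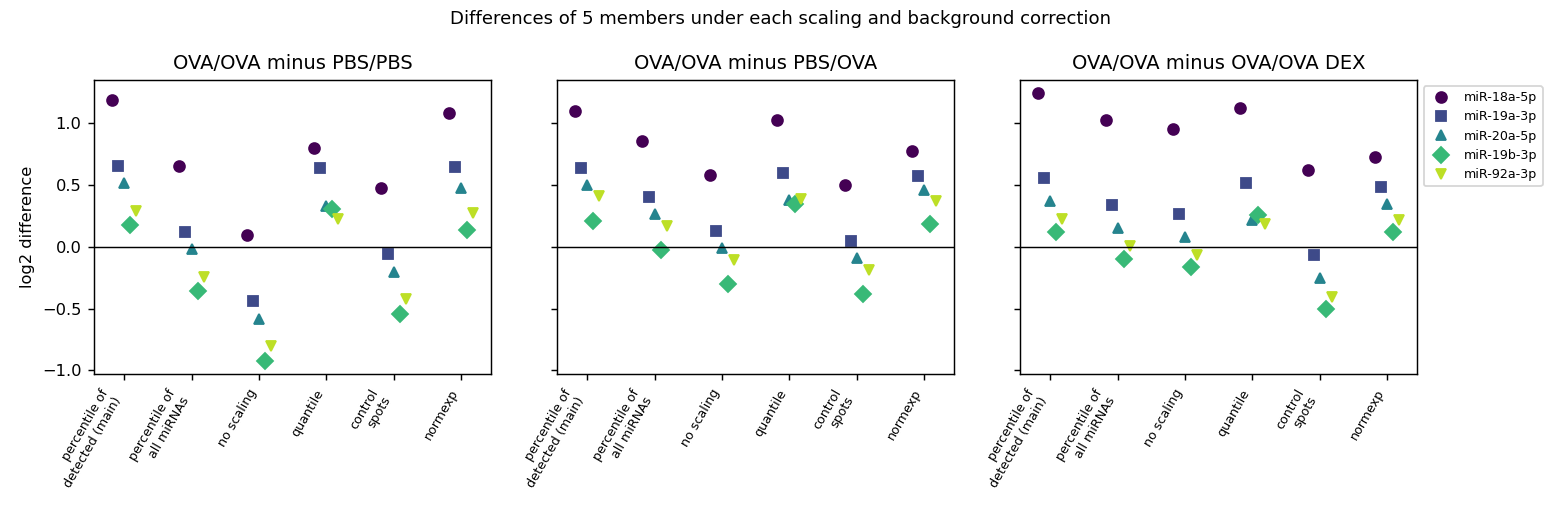
Log2 difference of OVA/OVA from each other group (panels, y axis) for the 5 members detected on all arrays, under the main setting and 5 other scalings or background corrections (x axis). The members shift together where the scale is 1 factor per array and unequally under quantile normalization and normexp, miR-18a-5p is at the top in every column, and without scaling or with control spots miR-20a-5p is at or below 0 except without scaling against OVA/OVA DEX.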

How the data were processed

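Total RNA of 16 lung samples was labelled with Cy3 and hybridised to Agilent Mouse miRNA Release 12.0 arrays. The authors deposited spot intensity values from Agilent Feature Extraction 10.7.3.1, with the background subtracted and no scaling between arrays. They also deposited processed log2 values, whose scaling is not described and which served as an alternative only, for the 157 of 672 rows, 5 members among them, that matched a miRNA within 0.15. An array has 13000 spots, and none was saturated. Outlier spots were dropped before the mean over each probe was taken, and a miRNA is the sum over its probes. Signals were scaled to an equal 75th percentile of the 206 miRNAs present on every array and floored at 1.71, which no member reached, before log2.

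One linear model over the 4 groups was fitted by limma 3.58.1 (R 4.3.3), and p-values of 266 miRNAs were adjusted by Benjamini-Hochberg. The study's text names Genespring and the Mann-Whitney test, so the latter was run as an alternative. Other alternatives were further scalings, normexp background correction (offset 50), other detection filters, floors and probe summaries, blocks for slide and replicate number, array brightness as a covariate and leaving out arrays. Pairs of members were compared with exact permutation tests in scipy 1.17.1, adjusted over 15 pairs. The fit and the permutation test were tested on simulated data. The members, lists and tests were chosen with earlier results of these data known. The miRNAs named are the members, the other arms, the paralogues, the seed relatives, the markers and the 3 miRNAs most like each member. Listed miRNAs were looked up on the array by exact name, so a miRNA not found may be present under another name. Of 24 listed cluster and related miRNAs, 23 matched the RefSeq table by name. Groups came from the sample labels, including the PBS challenge of PBS/PBS.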

Additional observations from a re-analysis of the deposited data

How the results depend on the processing

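Called miRNAs split into 16 higher and 10 lower against PBS/PBS, 9 and 5 against PBS/OVA and 25 and 9 against the dexamethasone group, into 2 and 151, 0 and 2, and 13 and 10 without scaling, and into 7 and 62, 1 and 32, and 10 and 55 with control spots. They split into 7 and 30, 2 and 7, and 18 and 19 with the percentile over all miRNAs, 6 and 16, 5 and 6, and 17 and 13 with quantile normalization, and 30 and 0, 2 and 0, and 5 and 2 with normexp. Over the 6 members, 6 comparisons and all alternatives, 1123 of 1176 values kept their side of the adjusted p of 0.05 and 14 reversed. A further 88 values changed sign with an adjusted p above 0.05 before and after, and are not counted as reversed. All 14 reversals concern the comparisons with OVA/OVA. Without scaling, the log2 difference of miR-19a-3p to PBS/PBS was -0.44 and that of miR-20a-5p -0.58, and to PBS/OVA that of miR-20a-5p was -0.012 and that of miR-92a-3p -0.11. With control spots the values were -0.059 and -0.20 for miR-19a-3p and miR-20a-5p against PBS/PBS, -0.093 and -0.19 for miR-20a-5p and miR-92a-3p against PBS/OVA, and -0.068, -0.25, -0.50 and -0.40 for miR-19a-3p, miR-20a-5p, miR-19b-3p and miR-92a-3p against OVA/OVA DEX. With the percentile over all miRNAs, miR-20a-5p against PBS/PBS was -0.021. With the replicate number as a block (replicate block), miR-17-5p against OVA/OVA DEX was 0.53. Brightness differs between these groups, and which scaling is right was not tested.

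The count of called members, 1 in each comparison with OVA/OVA, fell to 0 without scaling and with control spots against each group, to 0 with the percentile over all miRNAs against PBS/PBS and PBS/OVA, to 0 with quantile normalization and the Mann-Whitney test against PBS/PBS, and to 0 with normexp against PBS/OVA and OVA/OVA DEX, where miR-18a-5p differed by 0.78 and 0.72. By adjusted p alone it was 3, 4 and 3. Leaving out 1 array gave 0 to 1 against PBS/OVA (0 without OVA/OVA replicate 2) and 1 to 1 in the other comparisons with OVA/OVA. In the other comparisons it was 0 throughout. A PBS/PBS array left alone is assumed to vary like the other groups, and without either of them miR-19a-3p and miR-20a-5p no longer passed against PBS/PBS (adjusted p = 0.062 to 0.108).

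Pairs with unequal change, 6 from PBS/OVA and 7 from OVA/OVA DEX, numbered 0 and 3 with normexp, 10 with the mean over probes against PBS/OVA, and 0 with quantile normalization against PBS/OVA. Leaving out 1 array gave 0 to 8 in both comparisons. With 3 arrays in a group, the smallest exact p of 0.0238 needs 8 pairs at that value to pass, and the counts of 0 arose without any 1 PBS/OVA array or without OVA/OVA DEX replicate 1, 2 or 3. The gain of miR-18a-5p on miR-19a-3p stayed between 0.41 and 0.50 against PBS/OVA and between 0.64 and 0.73 against OVA/OVA DEX, with no overlap in 10 of 10. With normexp the gains of miR-18a-5p on the 4 other members detected on all arrays were 0.20 to 0.60 from PBS/OVA and 0.24 to 0.60 from OVA/OVA DEX. The cause was not tested.

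The deviations of same-numbered arrays from their group means had an r over 0.1 in 4 of 18 pairs, from -0.59 to 0.38. For PBS/OVA with OVA/OVA the r of numbers 1 to 4 was 0.38, 0.38, -0.22 and 0.17. In groups this small, taking off the mean sets the deviations of a group against each other. The check therefore cannot decide whether the numbers pair the samples. Under the replicate block miR-18a-5p differed by 1.41, 1.22 and 1.37 and stayed called, and miR-17-5p and miR-19b-3p newly passed against PBS/OVA (0.80 and 0.26). With the slide as a block the members called were the same in number.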
